A study of Rattus norvegicus with 4 samples.

Results

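The insulin-like growth factor (Igf) system of the rat sciatic nerve was described here by the repressive histone mark H3K27me3, which Polycomb repressive complex 2 places on silenced genes. The set held 10 genes, which were the ligands Igf1 and Igf2, the receptor Igf1r and the binding proteins Igfbp1 to Igfbp7. Its peaks were all those to which the authors' annotation gave the name of such a gene as the nearest, 136 of 129550 peaks. They named 9 of the 10 genes, against 44.5% of 23155 background genes (the protein-coding genes of a rat gene table and H19), and Igfbp6 was named by none. The tissue was sciatic nerve of male Sprague Dawley rats at postnatal day 42, taken from the side that had a skin incision alone, 1 day after the nerve of the opposite leg was transected. There were 2 H3K27me3 libraries, made after micrococcal nuclease digestion, and 2 libraries of the input chromatin of the same sham side; the labels do not say whether each came from a single animal. The authors deposited a combined peak list on the rat assembly rn5, with a single score per peak and no value per library. Scores are the authors' own, on a scale that is not stated, and they stand here without replicate error and without a test. The depth of the libraries is unknown.

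Igf1 and Igf2 are secreted peptides that signal through the tyrosine kinase Igf1r, and Igf2 is also bound and cleared by Igf2r. The binding proteins hold most of the ligand outside the cell, carry it, and release it when proteases cut them. In peripheral nerve the system is known for its part in Schwann cell survival, myelination and axon growth, and Igf2 is an imprinted gene that is expressed from the paternal copy and is far more active in the fetus than in the adult. The nerve is a mixed tissue, in which Schwann cells are joined by connective tissue, vessel and immune cells. A low score can come from few cells that carry the mark or from little mark in each cell, and these cannot be told apart in whole tissue.

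The mark was uneven across the family. A promoter peak, meaning a peak whose nearest edge lay within 1000 bp of the transcription start site (TSS), was present at 7 of the 10 genes, against 17.2% of the background. Background genes that the authors' annotation lacks count here as without a peak. Among the 10297 background genes that peaks name, the share was 38.6%, and in the family it was 7 of the 9 named. The 7 were Igf1, Igf2, Igfbp2, Igfbp3, Igfbp4, Igfbp5 and Igfbp7. The level differed widely among the 7. In Igf1, Igf2 and Igfbp2 a promoter peak was at least 2000 bp wide, which holds for 6.85% of the background, and in those 3 genes and Igfbp3 and Igfbp7 it lay in the top 25% of all scores, against 12.6%. Only Igf1 and Igf2 had a peak that contained a TSS, 2 of 10 against 6.15% of the background. Igfbp4 and Igfbp5 passed through peaks of 234 and 332 bp with scores of 6.81 and 8.04. Igf1r, Igfbp1 and Igfbp6 had no promoter peak. The limit of 1000 bp fell between Igfbp4, whose peak edge lay 775 bp from the TSS, and Igf1r, whose nearest edge lay 1282 bp away, followed by Igfbp1 at 3037 bp.

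The amount of mark assigned to each gene at any distance followed another order. The summed score was highest for Igf1r (1565.31), followed by Igf2 (633.5), Igfbp2 (402.65), Igf1 (288.99) and Igfbp7 (194.7). Igfbp3 had 100.53, Igfbp5 24.13, Igfbp4 6.81 and Igfbp1 3.30. By the number of peaks, Igf1r (65) and Igfbp7 (29) came first.

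**Figure D1:**
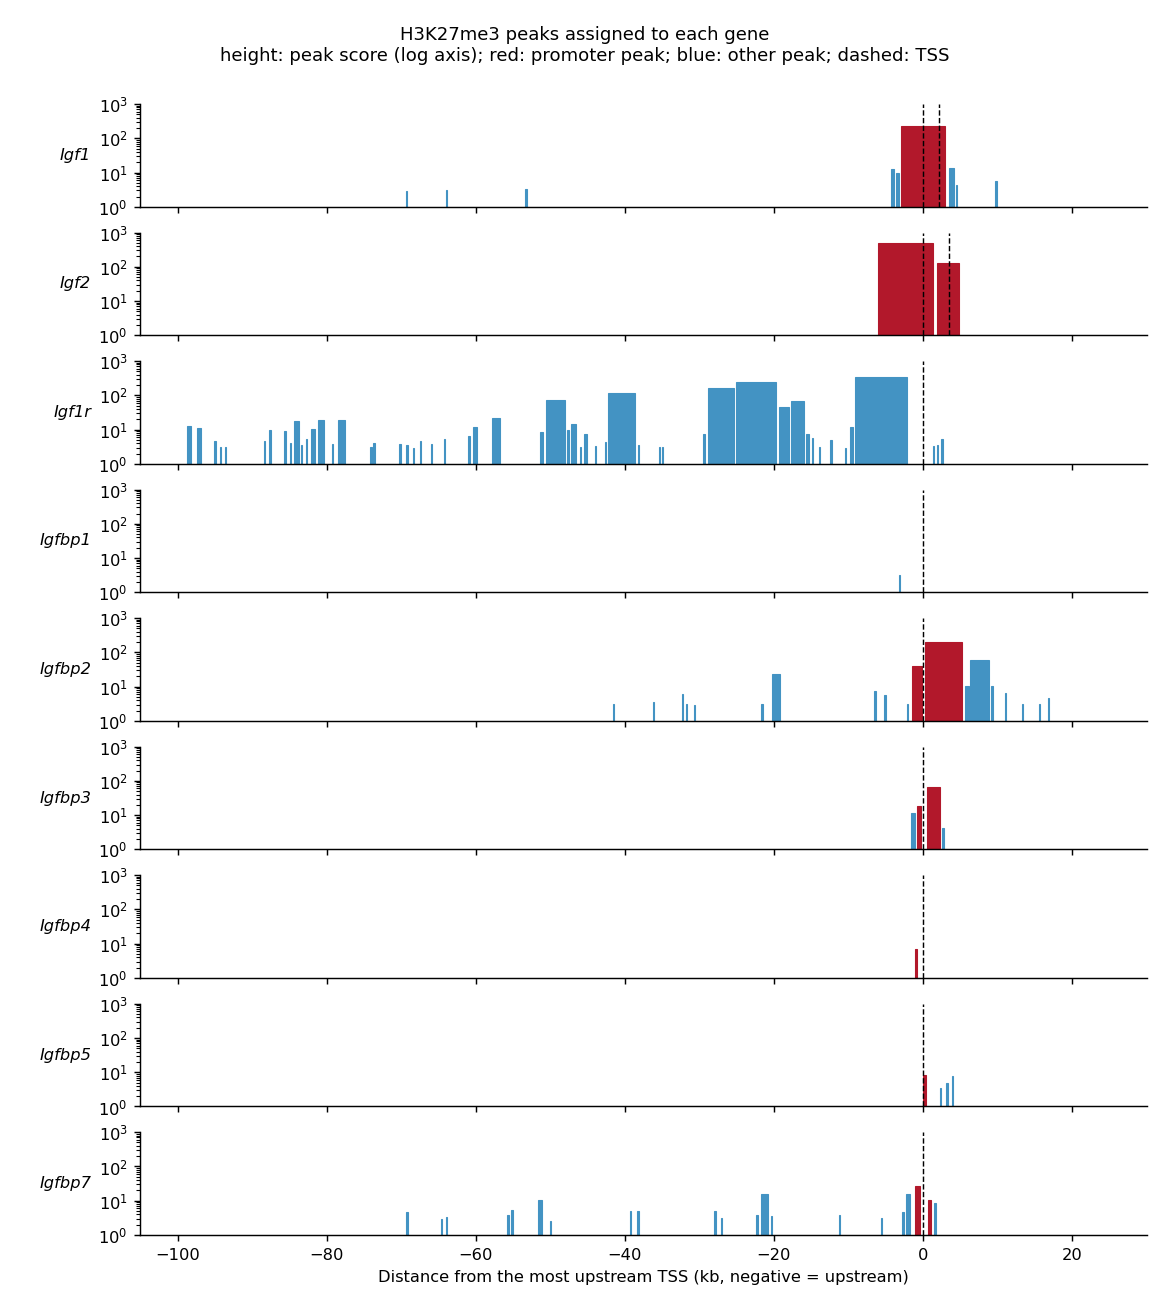
Peaks assigned to each gene that a peak names, by distance from its most upstream TSS in kb, with the peak score as bar height on a log axis. Red bars are promoter peaks, blue bars other peaks and dashed lines the TSS. Igf1 and Igf2 have wide peaks across their TSS, while the wide peaks of Igf1r end 2093 bp before its TSS; peaks more than 105 kb upstream or 30 kb downstream are outside the plot.

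The ligand Igf2 had the highest promoter score of the family. Its 2 peaks lay side by side on chromosome 1 with a gap of 476 bp, and each contained 1 of the gene's 2 annotated TSS, which lie 3505 bp apart on the minus strand. The peak over the distal TSS (chr1:222731640-222739062) was 7422 bp wide with a score of 508.5, rank 208 among 6226 promoter peaks. It reached 6034 bp upstream and 1388 bp downstream of that TSS. The peak over the proximal TSS (chr1:222728164-222731164) was 3000 bp wide with a score of 125. The distal peak was also the densest of the family's promoter peaks, with 68.5 score units per kb, against a median of 28.7 for all promoter peaks. Ranked by the leading promoter score of each gene, Igf2 stood at 199 of 4088 genes. The nearest in score were Prox1 (508), Foxe1 (507) and Pcdh17 (506.4), with widths of 9308, 9614 and 9773 bp, all wider than the Igf2 peak.

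The promoter sequences of the ligands are given because the peaks of both genes lie across their starts. They are RefSeq sequences of the newer rat assembly GRCr8, each from 250 bases before to 50 bases after a start, 5′ to 3′, with CpG dinucleotides in capitals. In that table the 2 starts of Igf2 are also 3505 bp apart, as the 2 TSS of the peak annotation are. For Igf1 and the other members, whether the start in the table is a TSS of the peak annotation was not established.
Igf2 distal: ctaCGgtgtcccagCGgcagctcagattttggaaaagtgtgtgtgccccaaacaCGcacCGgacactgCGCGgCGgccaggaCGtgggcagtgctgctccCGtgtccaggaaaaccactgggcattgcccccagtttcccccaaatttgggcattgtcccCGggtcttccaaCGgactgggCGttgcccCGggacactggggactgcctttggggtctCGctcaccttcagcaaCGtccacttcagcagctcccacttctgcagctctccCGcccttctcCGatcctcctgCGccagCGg
Igf2 proximal: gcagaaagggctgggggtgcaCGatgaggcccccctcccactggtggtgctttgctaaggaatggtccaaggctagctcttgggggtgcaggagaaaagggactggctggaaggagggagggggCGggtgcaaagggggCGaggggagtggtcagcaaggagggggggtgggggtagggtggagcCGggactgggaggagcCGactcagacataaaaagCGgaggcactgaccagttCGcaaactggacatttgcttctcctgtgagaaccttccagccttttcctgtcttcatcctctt
Igf1: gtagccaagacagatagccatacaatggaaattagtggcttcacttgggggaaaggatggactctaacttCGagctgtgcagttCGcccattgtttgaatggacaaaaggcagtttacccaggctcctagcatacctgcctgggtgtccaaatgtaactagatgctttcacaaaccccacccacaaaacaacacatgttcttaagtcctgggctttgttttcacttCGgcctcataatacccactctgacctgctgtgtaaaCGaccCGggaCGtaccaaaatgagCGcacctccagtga

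The Igf2 distal sequence (minus strand, chr1:207253931-207254230) held 19 CpG and the proximal sequence (minus strand, chr1:207250426-207250725) held 7. Of all promoters in the table, 75.8% held as many CpG as the distal sequence or fewer, and 52.4% as many as the proximal sequence or fewer. The observed over expected CpG ratio, which sets the CpG number against the product of the C and G numbers, was 0.64 for the distal and 0.28 for the proximal sequence, against a median of 0.39 over 33469 promoters. The sequence with the higher CpG number lay at the TSS with the wider and higher-scoring peak.

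Between Igf2 and H19, the maternally expressed non-coding gene that shares its imprinting control, peaks scored below the 2 Igf2 peaks. The scores did not fall steadily towards H19. Downstream of the 2 Igf2 peaks, 19 peaks were assigned to Mir483, a microRNA gene inside Igf2, and covered 7462 bp with a summed score of 184.73. The leading peak among them (chr1:222726077-222727872, 1795 bp, score 41.7) lay next to the proximal Igf2 peak. With peaks up to 5000 bp apart merged, Igf2 and its Mir483 neighbours formed a domain of 17256 bp, of which 76.6% was covered, with a summed score of 696.86. Its rank was 489 of 36394 merged domains.

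At H19 itself, whose TSS is 91129 bp downstream of the distal Igf2 TSS, the leading promoter peak was 413 bp wide with a score of 11.1. The intergenic peaks assigned to H19 reached scores of 33.6 and 29.7 at widths of 977 and 1454 bp. These 2 peaks were centred 55304 and 49746 bp downstream of the distal Igf2 TSS. They scored above all Mir483 peaks except the one of 41.7 next to Igf2. On the other side Ins2, an insulin gene whose TSS is 19825 bp from the distal Igf2 TSS, had no promoter peak. Its 2 peaks, with scores of 35.5 and 3.51, lay on the Igf2 side of its start, at 6510 and 4402 bp.

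**Figure D2:**
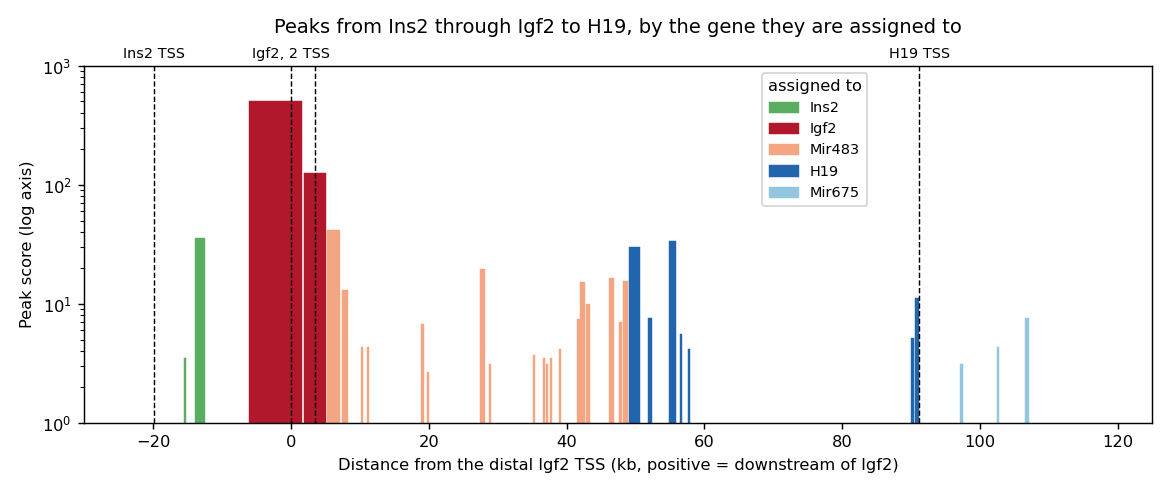
Peaks from Ins2 through Igf2 to H19 by distance from the distal Igf2 TSS in kb, with bar height as the peak score on a log axis and colour as the gene that the authors' annotation assigns. The 2 Igf2 peaks, with scores of 508.5 and 125, stand above all other peaks of the stretch, whose highest score was 41.7.

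Igf1, the ligand that mediates much of growth hormone action and is also made locally in tissues, had a single promoter peak. It lay at chr7:28525283-28531215, was 5932 bp wide and scored 227.1, rank 575 of the promoter peaks. It contained both annotated TSS of the gene, which are 2152 bp apart, and was centred within 9 bp of the upstream one, reaching 2957 bp before and 2975 bp after it. The peak held 78.6% of the summed score of the gene's 11 peaks. The other 10 were small, with scores up to 13.6. Of these, 4 flanked the promoter peak and formed with it a merged domain of 8932 bp, of which 85.8% was covered. The nearest peaks beyond were centred 7645 bp downstream of the second TSS and 53260 bp upstream of the first. The promoter sequence (plus strand, chr7:24172282-24172581) held 7 CpG with an observed over expected ratio of 0.40, near the median of the table.

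**Figure D3:**
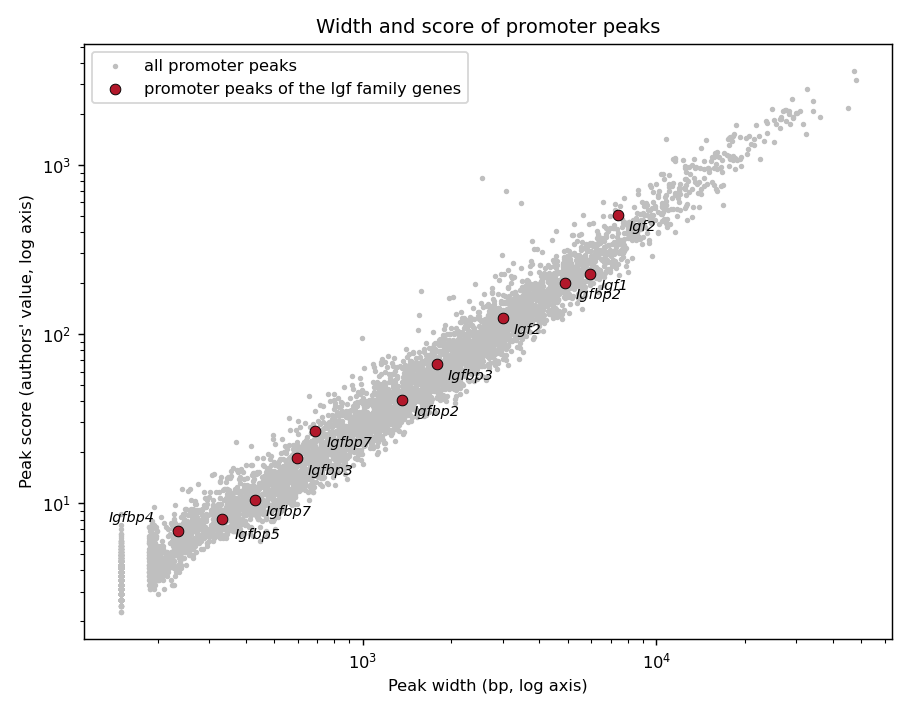
Width in bp against score, both on log axes, of all promoter peaks in grey and of the 11 promoter peaks of the family in red. The family runs from Igfbp4 at 234 bp and 6.81 to Igf2 at 7422 bp and 508.5, which ranks 208 by score and 318 by width among the 6226 promoter peaks.

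The receptor Igf1r showed the reverse arrangement, with no peak at the promoter and the highest summed score of the family. Its 65 peaks covered 45009 bp with a summed score of 1565.31, and placed it 199th in peak number, 165th in covered length and 217th in summed score among the genes that peaks name. Of the 65 peaks, 51 lay upstream of the TSS. No peak touched the 3375 bp around the TSS. The stretch ended on the upstream side at the widest Igf1r peak (chr1:129976685-129983711, 7026 bp, score 338.1), 2093 bp before the TSS. On the downstream side it ended at 3 small peaks in intron 1, with scores of 3.30, 3.51 and 5.16.

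The Igf1r sequence is given because it held the most CpG of the family, in a gene with no promoter peak (plus strand, GRCr8 chr1:130959747-130960046, CpG in capitals).
Igf1r: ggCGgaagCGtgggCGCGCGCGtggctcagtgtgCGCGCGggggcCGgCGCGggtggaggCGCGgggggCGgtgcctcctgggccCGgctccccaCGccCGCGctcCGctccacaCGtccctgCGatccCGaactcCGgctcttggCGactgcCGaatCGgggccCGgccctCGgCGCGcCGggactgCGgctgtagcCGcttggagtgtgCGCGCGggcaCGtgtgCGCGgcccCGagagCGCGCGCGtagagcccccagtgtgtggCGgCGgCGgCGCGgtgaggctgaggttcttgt

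It held 50 CpG at an observed over expected ratio of 1.11, and 99.4% of all promoters in the table held as many or fewer. Beyond the first wide upstream peak, peaks of 5489 bp (score 247.9, centred 22403 bp upstream) and 3455 bp (166.9, 27095 bp upstream) followed. Farther out were peaks of 3643 bp (115.3, 40479 bp upstream) and 2608 bp (74.1, 49288 bp upstream). The 23 peaks within 50 kb upstream covered 29397 bp with a summed score of 1150.17, whereas the 28 between 50 and 100 kb covered 9252 bp with 221.84. Per 50 kb, the amount of mark was lower in the farther stretch. Merging peaks up to 5000 bp apart gave a domain of 32136 bp with 15 peaks that took in the Igf1r TSS, and its summed score of 921.21 ranked 353rd among merged domains.

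The upstream region is shared with Synm, the gene of an intermediate filament protein, which lies on the opposite strand. The 2 starts are 197946 bp apart, and the 87 peaks between them covered 29.1% of the stretch. The annotation gave 51 of these to Igf1r, with a summed score of 1372.01, and 36 to Synm, with 614.2. The highest of the Synm peaks scored 208.1 at 4689 bp, at -37156 bp from its own start, the minus sign meaning upstream. A further 10 peaks given to Igf1r lay more than 300 kb downstream of its TSS, all intergenic by the annotation, with a summed score of 178.24 and a highest score of 114.1. These peaks bear the name Igf1r because no TSS of the authors' annotation lay nearer to them. In GRCr8 Pgpep1l and Fam169b follow Igf1r on the downstream side, and Tmsb10l5 lies between Synm and Igf1r. Peaks named none of these genes, and whether the authors' annotation holds them is unknown.

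**Figure D4:**
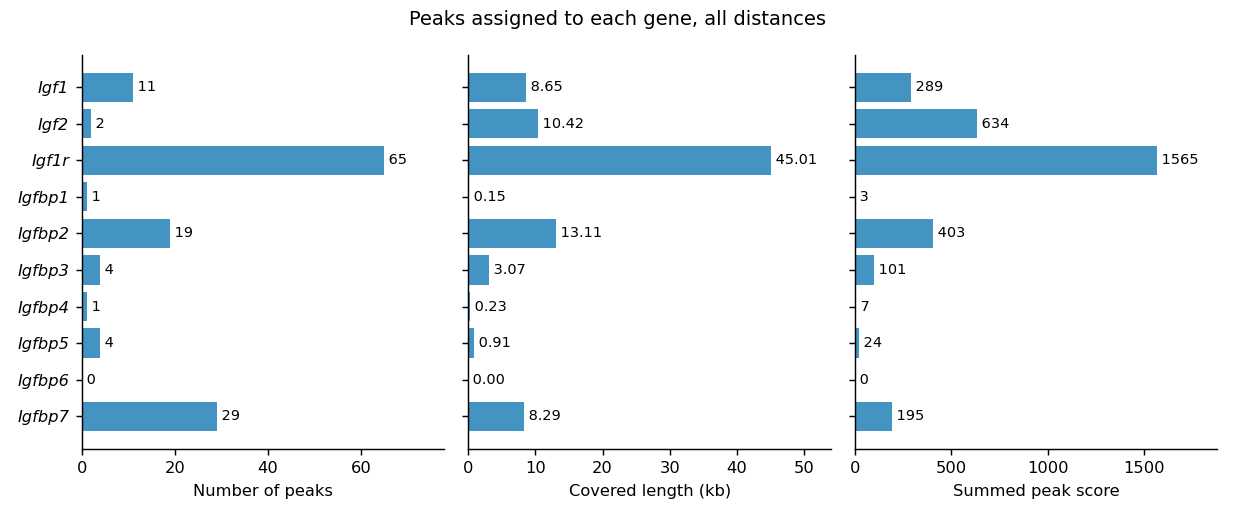
Number of peaks, covered length in kb and summed score of all peaks assigned to each of the 10 genes, at any distance. Igf1r leads in all 3 with 65 peaks and a summed score of 1565.31, Igf2 has 2 peaks but the second-highest summed score of 633.5, and Igfbp6 has none.

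Among the binding proteins, Igfbp2, which is abundant in fetal tissue and fluid, had the most mark. Its 19 peaks covered 13113 bp with a summed score of 402.65. The 2 promoter peaks flanked the TSS on either side without containing it. The upstream one (chr9:79887177-79888542) was 1365 bp wide with a score of 41 and ended 100 bp before the TSS, and the one in intron 1 (chr9:79888967-79893850) began 325 bp after it and was 4883 bp wide with a score of 200.9. Another intron 1 peak of 2520 bp scored 60.8. With its smaller neighbours this made a merged domain of 23471 bp, which was covered to 46.7% and continued 16849 bp into the gene at its last peak centre.

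The Igfbp2 and Igfbp6 sequences are given as those of the binding protein with the highest summed score and of the one that no peak names (both plus strand, GRCr8 chr9:81864561-81864860 and chr7:135154669-135154968, CpG in capitals).
Igfbp2: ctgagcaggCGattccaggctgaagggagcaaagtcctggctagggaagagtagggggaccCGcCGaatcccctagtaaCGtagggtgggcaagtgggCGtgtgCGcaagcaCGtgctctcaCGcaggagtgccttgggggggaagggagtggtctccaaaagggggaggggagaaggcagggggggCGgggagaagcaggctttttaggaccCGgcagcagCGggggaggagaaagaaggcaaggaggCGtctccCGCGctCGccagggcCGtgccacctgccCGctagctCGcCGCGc
Igfbp6: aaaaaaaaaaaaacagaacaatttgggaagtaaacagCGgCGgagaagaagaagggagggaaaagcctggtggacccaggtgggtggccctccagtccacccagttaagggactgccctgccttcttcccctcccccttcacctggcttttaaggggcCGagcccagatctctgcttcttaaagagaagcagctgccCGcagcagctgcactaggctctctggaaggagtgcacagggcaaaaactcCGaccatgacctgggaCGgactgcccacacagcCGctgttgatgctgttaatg

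Igfbp5, which binds both ligands and also the extracellular matrix, faces Igfbp2 tail to tail, and the 2 starts are 48563 bp apart. No peak lay in the 27568 bp between the last Igfbp2 peak and the first Igfbp5 peak. The 4 peaks of Igfbp5 lay within 3953 bp downstream of its start and scored 8.04, 7.63, 4.95 and 3.51, together 24.13. The highest (chr9:79936867-79937199, 332 bp) was centred in the 5′ UTR and ended 6 bp short of the TSS. The summed scores of these adjacent genes, 402.65 for Igfbp2 and 24.13 for Igfbp5, were far apart.

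Igfbp1 and Igfbp3 are likewise neighbours, with starts 16619 bp apart, and differed too. Igfbp3, the main carrier of Igf in serum, had 4 peaks that covered 3066 bp with a summed score of 100.53. Its promoter peaks again flanked the TSS. The one in the gene body (chr14:81097385-81099178, 1793 bp, score 66.4) ended 497 bp short of the TSS, and the upstream one (chr14:81099920-81100517, 597 bp, score 18.4) began 245 bp beyond it. Igfbp1, a liver protein controlled by insulin, had a single peak of the smallest width, 150 bp, centred 3112 bp upstream with a score of 3.30 and placed in a SINE repeat. Between that peak and the first Igfbp3 peak no peak lay in 16895 bp, a stretch that holds the Igfbp1 start.

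Igfbp7, a binding protein of low affinity for the ligands that is prominent in vessels, had 29 peaks, the highest with a score of 26.8. Its promoter peaks lay upstream (chr14:32802750-32803440, 690 bp, score 26.8) and in intron 1 (chr14:32804541-32804971, 430 bp, score 10.5), with edges 411 and 690 bp from the TSS. The highest peak held 13.8% of the summed score of 194.7, the smallest such share of the family. Of the 29 peaks 14 lay within 50 kb of the TSS, and the farthest was centred 458818 bp upstream.

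Igfbp4, an inhibitor of Igf action that pregnancy-associated plasma protein A cleaves, had a single peak of 234 bp (chr10:86746467-86746701, score 6.81), whose score was above the list's median of 4.54 but below its upper quartile of 9.90. Igfbp6, which prefers Igf2 as its ligand, was named by no peak. Of its 5 nearest protein-coding neighbours on each side in GRCr8, peaks named 2 of 10, Krt18 and Eif4b, and the adjacent Spryd3 and Soat2 were named by none. At Igf1r peaks also named 2 of the 10 neighbours, and at Igfbp4 8. For the other members the number ran from 4 at Igf1 to 7 at Igfbp2 and Igfbp5. Of all background genes peaks named 44.5%. A gene that no peak names cannot be told from one that the authors' annotation lacks.

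**Figure D5:**
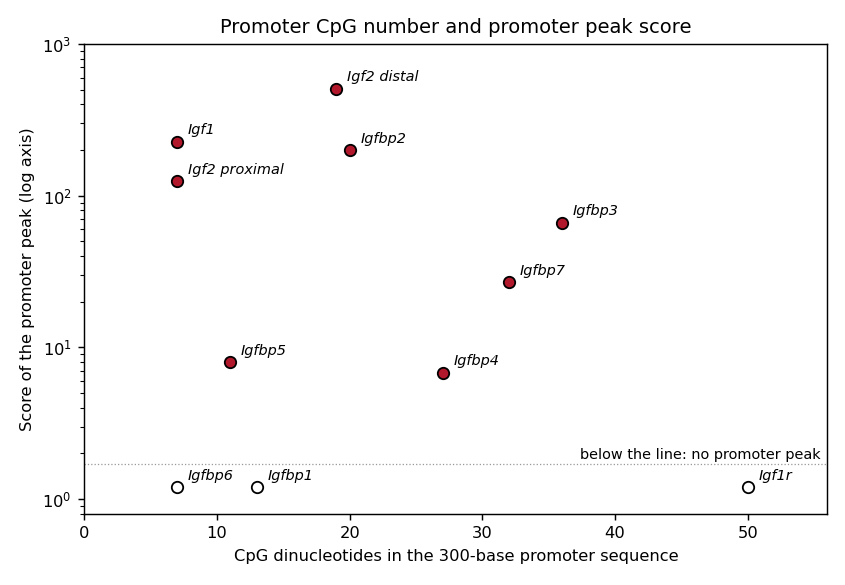
CpG number in the 300-base promoter sequence against the score of the promoter peak on a log axis, with 2 points for Igf2 and open circles below the dotted line for genes without a promoter peak; sequence and peak were matched by gene name, and by start only for Igf2. Igf1r has the most CpG, 50, and no promoter peak, while the Igf1 and proximal Igf2 sequences have 7 CpG and scores of 227.1 and 125.

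Across the binding proteins the promoter scores followed the CpG number only in part. Igfbp3 held 36 CpG, Igfbp7 32, Igfbp4 27 and Igfbp2 20, and the scores of their leading promoter peaks were 66.4, 26.8, 6.81 and 200.9. Scores thus fell with CpG number from Igfbp3 to Igfbp4, while Igfbp2 scored highest with fewer CpG than these. Igfbp5 held 11 CpG with a leading score of 8.04. Igfbp1 with 13 and Igfbp6 with 7 had no promoter peak. Over the table, promoters of genes with a promoter peak had a median of 16 CpG and those of other genes 6. The motif TATAAA, searched on both strands, was found in the Igfbp4 sequence and in none of the other 10 of the family, against 14.2% of all promoters in the table.

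The 136 peaks of the family were mostly intergenic (107 peaks, 78.7%, against 74.7% of all peaks), with 22 in introns, 6 in the authors' promoter-TSS class and 1 in a 5′ UTR. The share whose centre lay upstream of the nearest TSS was 73.5%, against 53.8% of all peaks. Of those 100 upstream peaks, 51 were from the 65 of Igf1r and 27 from the 29 of Igfbp7. The other genes were mixed, with 11 of 19 upstream for Igfbp2, 5 of 11 for Igf1, 2 of 4 for Igfbp3 and 0 of 4 for Igfbp5. Both Igf2 peaks, each of which contains a TSS, and the single peaks of Igfbp1 and Igfbp4 were centred upstream. Peaks centred in repeats numbered 39 (28.7%, against 31.1% of all peaks), of which 21 belonged to Igf1r and 11 to Igfbp7, and none to Igf1, Igf2, Igfbp3, Igfbp4 or Igfbp5. No peak was centred in a CpG island of the authors' annotation, a class that held 0.379% of all peaks. Peaks of the smallest width, 150 bp, made up 41.2% of the family's peaks and 45.2% of all peaks.

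A list of 49 other genes held the wider pathway and H19, the chromosome neighbour of Igf2. Of these, 18 (36.7%) had a promoter peak, H19 among them, against 17.2% of the background. Peaks named 36 of the 49, so the 18 stand against a share of 38.6% among the background genes that peaks name. The binding partners and proteases carried the mark most often, with 7 of 9. Stc2, a secreted inhibitor of the protease that cuts Igfbp4, had a peak of 7732 bp over its start with a score of 299.5. Igfbpl1, a binding protein relative, had 4534 bp and 224.8, Pappa, the protease itself, 2484 bp and 77.4, and Htra1, a serine protease that cleaves Igf binding proteins, 2414 bp and 70.3. Of the insulin family ligands 4 of 7 had a promoter peak, led by Insl3 (8507 bp, 404.9), a testis hormone, and Rln1 (7651 bp, 320.1), a relaxin.

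Receptors and adaptors had 3 of 10, which were Insrr, Irs1 and Grb10, named here after their values were seen. The insulin receptor Insr had no promoter peak, its nearest peak being centred at -11237 bp with a score of 3.09, and Igf2r had none either, with its nearest peak 10667 bp downstream of its TSS at the same score. Of 14 kinases and downstream genes only Pik3r3 had a promoter peak (also named after its value was seen), a share of 7.14%, and of 8 genes of the growth hormone axis 2 did, Ghrhr and Socs2, likewise named afterwards, with scores of 3.09 and 13.8.

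Marker genes of the nerve's cell types and of other tissues were read from the same list. Over all marker lists 47.4% of the genes had a promoter peak, against 17.2% of the background. Peaks named 28 of the 38 markers, and 18 had a promoter peak, against 38.6% of the background genes that peaks name. A promoter peak was present at 4 of 4 neuron markers, and at 2 of 3 skeletal muscle and 1 of 3 liver markers. It was present at 0 of 4 macrophage markers, of which peaks named 1, and at 0 of 3 endothelial markers, of which peaks named 2. It was present at 6 of 12 Schwann cell, 3 of 6 fibroblast and 2 of 3 perineurial markers. The lists were short, and the share was 66.7% in both the perineurial and the skeletal muscle list. These counts therefore do not check the identity of the tissue. The list holds no expression values to set beside them. Among the Schwann cell markers the promoter peak scored 117.2 at Erbb3, 105.4 at Ncam1, 77.4 at Mbp, 72.6 at Egr2 and 4.13 at Sox10, so the scores within that list were far apart.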

How the data were processed

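H3K27me3 was measured by ChIP-seq in sham-side sciatic nerve. The submitters' processing notes name CASAVA 1.8.2, Bowtie and HOMER. Per the file headers, the combined sham peaks were annotated against rn5. How peaks were called, whether the input entered, and how replicates were joined is not given in the sources used here. Scores were deposited by the authors, 1 per peak, with no stated scale. Coordinates, widths and distances to the TSS were deposited by the authors in bp.

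Each TSS was read back from a peak's centre and signed distance, with the strand taken from GRCr8 where a TSS had a single peak. Named genes were matched to a GRCr8 gene table (99.3%), used for names, biotype and neighbours. Protein-coding genes of that table and H19, 23155 in all, formed the background. Peaks up to 5000 bp apart were merged for domains. CpG numbers were counted in RefSeq promoter sequences of GRCr8, which covered all 10 members. The family, the pathway and marker lists and the naming rule (all members, the 6 pathway genes with the highest promoter score, Ins2, H19, Insr and Igf2r, and neighbours of members) were chosen with earlier results of these data known. No significance test was run, since the list holds no value per library. Alternatives changed the reach, the minimum score and width, merging and assignment. The code for TSS positions and promoter peaks was checked on simulated data. The transected side was not analysed here. Python 3.11.15, pandas 2.3.3, numpy 2.4.6 and matplotlib 3.10.9 were used.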

Additional observations from a re-analysis of the deposited data

How the results depend on the processing

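The count of family members with a promoter peak, 7 of 10, was 9 with a reach of 5000 bp, 8 after merging, 6 in the promoter-TSS class alone, 5 in the top 25% of scores, 4 with peaks of at least 1000 bp, 3 with at least 2000 bp and 2 where the peak had to contain the TSS. It was 7 with scores at or above the median and when peaks were counted whichever gene they were assigned to. Igf1r joined with merging and with the wider reach, and Igfbp1 with the wider reach. Over these settings the background of 3979 genes (17.2%) was 6416 (27.7%) with a reach of 5000 bp and 4140 (17.9%) after merging. It was 1916 (8.27%) in the promoter-TSS class, 3399 (14.7%) at or above the median score and 2927 (12.6%) in the top 25%. With the 2 minimum widths it was 2290 (9.89%) and 1585 (6.85%), and with the TSS contained 1424 (6.15%). Among the 10297 background genes that peaks name, the share with a promoter peak was 38.6%. The pathway count of 18 of 49 was 25 with a reach of 5000 bp, 18 after merging, 16 at or above the median score and 15 in the top 25%. It was 9 in the promoter-TSS class, 10 and 7 with the minimum widths and 6 with the TSS contained. These follow from the construction of each rule.

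Of 88 values of single members recomputed, 52 stayed within 1.5 times. With peaks up to 5000 bp apart merged, the width of the leading promoter peak moved by more in 6 genes. It stayed in 1, Igfbp4, at 234 bp. The merged widths include the gaps between peaks. They rose from 690 to 7288 bp for Igfbp7, from 332 to 4065 bp for Igfbp5 and from 1793 to 4386 bp for Igfbp3. Counting all peaks within 50 kb whichever gene they are assigned to gave 25 peaks for Igf2, 13 for Igfbp5, with a summed score of 365.34, of which 341.21 belongs to Igfbp2 peaks, and 5 for Igfbp1, with 103.83, of which 100.53 belongs to Igfbp3 peaks. The number of Igf1r peaks was 26 within 50 kb of the TSS and 38 at or above the median score. No paired analysis was possible because the replicates share 1 combined score for each peak, and leaving out a replicate could not be run for the same reason. Replicate error, the effect of the input and the depth behind each score are therefore unknown.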
